A study of Mus musculus with 2 samples.

Results

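The stretch described here is the gene-rich Ralb-Ptpn4 domain on mouse chromosome 1, chr1:121380001-121900000 on the mm9 build. It runs from within Ralb past Ptpn4 and Tmem177 to just above the start of Gm101, and its members are the pairs of bins inside it. Chromatin contacts were measured by capture Hi-C, in which fixed chromatin is cut, religated and sequenced so that each read pair joins 2 positions that lay close together, after enrichment for 1 stretch of the genome with custom probes. All pairs of 10 kb bins with both ends in the 520 kb domain and at least 20 kb apart were taken, which gave 1275 of the 112101 such pairs in the map. At 5 kb bins there were 5050 of 447931. The limits of the domain were chosen by the insulation score of this same map (KR values, 150 kb window), so the contrast between inside and outside is part of the choice and is given as a description only.

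The samples were 2 wild type libraries from forelimb and hindlimb buds of mouse embryos at E10.5, fixed in 2% paraformaldehyde (PFA) and digested with DpnII. There was no mutant group or treatment. Both titles carry the same replicate number, and the 1 deposited map is named as merged. The name does not say what was merged, and the map is taken here to hold both libraries. With 1 map, no value has a standard deviation or an n, and no difference could be tested over embryos. The intervals below are exact Poisson 95% intervals that cover counting error only. Fore- and hindlimb, and the cell types of the limb bud, cannot be told apart in this map.

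Topological domains are stretches of chromatin whose parts contact each other more often than they contact the neighbouring stretches. Many of their borders and many point-like contacts lie at sites of CTCF, a zinc-finger DNA-binding protein that halts the loop-extruding cohesin ring, and the direction of a site on the DNA matters for which partner it pairs with. Gene bodies can also form small units of contact of their own. The domain holds 5 GENCODE M1 protein-coding genes, all on the minus strand. Ralb (ENSMUSG00000004451.8, 121366882 to 121401371) encodes a small GTPase of the Ras superfamily, and only its upstream part of 21371 bp lies inside. Epb4.1l5 (ENSMUSG00000026383.8, 121441610 to 121545577) encodes a FERM-domain protein that links membrane proteins to the cytoskeleton and is needed when mesoderm cells leave the epithelium of the early embryo. Ptpn4 (ENSMUSG00000026384.7, 121554621 to 121734190) encodes a cytoplasmic protein tyrosine phosphatase with FERM and PDZ domains. Tmem177 (ENSMUSG00000036975.5, 121804467 to 121809785) encodes a mitochondrial membrane protein, and Gm101 (ENSMUSG00000036962.6, 121819918 to 121893811) is a predicted gene. Coding genes covered 73.9% of the domain against 27.8% of the whole map. Of the 52 bins, 43 overlapped a gene. The 9 others formed a run of 3 bins between Ralb and Epb4.1l5, from 121410001 to 121440000, and a run of 6 bins between Ptpn4 and Tmem177, from 121740001 to 121800000.

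The strongest contact of the domain and its deepest internal border lay on either side of Tmem177. Bases that match the core letters of CTCF sites in those bins, in the other border bin and in the bin above the domain are shown first, as a description of what these bins hold. The letters searched were CCA, any 2 bases, AG, any 2 bases and GGC, without a gap and on both strands, and 55.8% of the 10 kb bins of the domain and 41.7% of the bins of the map held at least 1 match. Each line gives the match in capitals with 4 flanking bases on each side, 5′ to 3′ on the strand of the match, read from the NCBIM37 (mm9) genome. The first 3 lie in the gene-free bin 121790001 to 121800000, the next in the bin of the deepest internal border, the fifth in the border bin that holds the start of Ptpn4, and the last in the bin just above the domain, in an intron of Sctr.
chr1:121791766-121791785, minus strand: ctggCCAGCAGGGGGCgcaa
chr1:121790999-121791018, minus strand: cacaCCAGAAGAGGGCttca
chr1:121799379-121799398, minus strand: gttcCCAGGAGCTGGCccaa
chr1:121816031-121816050, plus strand: gcacCCACCAGAGGGCacaa
chr1:121737063-121737082, plus strand: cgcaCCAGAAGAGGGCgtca
chr1:121909892-121909911, minus strand: ctggCCACCAGGGGGCagag
All but the last are intergenic. The bins 121380001, 121440001, 121550001, 121570001 and 121800001, which hold ends of the enriched pairs named below, held no match to these letters, which says nothing about whether CTCF binds there. Of the 10 bins of named pairs, borders and domain edges, 4 held a match. Among further bins of called pairs, 121430001 and 121530001 held 3 matches each, 121450001, 121520001 and 121820001 held 1 each, and 121780001 held 0. Binding of CTCF was not measured in these samples.

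The 1275 pairs held 201173 read pairs, 3.10% of the 6484654 in the map. The count of a 10 kb pair ran from 6 to 1449 with a median of 102, and 1269 pairs had at least 10. At 5 kb the median was 25 read pairs and 31 pairs had none. A count of 0 allows up to 3 read pairs. The total of a 10 kb bin ran from 2729 to 49237, with a median of 23114.5 against 22376 over the map. Depth was uneven along the genes: the 19 bins of Ptpn4 had a median total of 15108 and the other bins of the domain 25753. The Ptpn4 bins also had a lower GC content, with medians of 37.0% and 45.6%, and 22.0 against 24.0 DpnII sites (GATC). Their part in the depth was not tested. The lowest bin, 121640001 to 121650000 in Ptpn4, was the only one under 25% of the map's median total.

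To compare pairs at different distances, the count of each pair was divided by an expected count, which took the map's mean balanced value at that distance and scaled it back with the balancing factors of the pair's bins. The balanced (KR) value is the authors' signal after scaling all bins to the same total. Over all 1275 pairs the summed observed/expected value was 1.03 (95% interval 1.03 to 1.04), and the median pair had 1.08. In the domain 63.45% of pairs were above 1. Over all pairs of the map at the same distances the median was 0.904 and the summed value 0.952. The middle of the domain's distribution was narrow: the 10th and 90th percentiles were 0.772 and 1.49, against 0.436 and 1.57 in the map. Only 4 pairs (0.314%) lay under 0.5, against 13.9% in the map, and 16 (1.25%) lay over 2, against 4.63%. Pairs that joined the domain to the stretch below it, up to 510 kb apart, had 0.860 (0.854 to 0.865) and those that joined it to the stretch above had 0.750 (0.745 to 0.756). These last contrasts are what the choice of limits rests on.

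Contact fell more slowly with distance inside the domain than over the whole map. The map's pairs include many that cross domain borders, and the domain's limits were chosen by insulation in this map. This contrast, in slope and in level at each distance, is therefore part of the choice and a description only. Pairs 20 kb apart had a mean KR value of 714.5. The mean was 155 for pairs 100 kb apart, then 95.8 at 200 kb, and 59.9 for pairs 400 kb apart, an 11.9-fold fall over this range. Single pairs at 1 distance differed by a further 2.37-fold at 20 kb, from 406 to 964, and by 3.95-fold at 350 kb, from 42.4 to 167.5. The slope of log10 mean KR value on log10 distance was −0.779 ± 0.004 (counting standard error), where the whole map had −0.870 ± 0.003 over the same distances. The slope depended on the range: it was −0.849 from 20 to 200 kb and −0.676 from 100 to 400 kb. Raw counts gave −0.654.

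Other domains of the map fell on either side of this slope. From 20 to 360 kb, the longest distance that all of them hold, the Ralb-Ptpn4 domain had −0.797 ± 0.004. The domain of Steap3, with 36.6% of its length in coding genes, had −0.463 ± 0.004, and the domain of Insig2, with 36.9%, had −0.945 ± 0.018. In the Steap3 domain the mean KR value fell to 107 at 240 kb and rose to 162 at 360 kb, so its slope does not stand for a steady fall. The nearly gene-free domain of En1, with 1.11%, had −0.635 ± 0.003. Ordered by their share of coding genes, these slopes neither rose nor fell throughout. The differences are far larger than counting error, but with 1 pooled map they were not tested over embryos. The mean KR value of the domain was above that of the map at 49 of its 50 distances. The ratio rose unevenly, from 1.02 at 20 kb to 1.349 at 400 kb. It was 1.44 at 350 kb, a distance that holds the strongest enriched pair described below. The ratio was 1.296 at 340 kb, 1.233 at 360 kb and 1.479 at 380 kb. The summed observed/expected value, in which deeply covered bins weigh more, was 0.981 over 20 to 40 kb and 1.18 from 200 kb up. At the exception, 200 kb, the ratio was 0.792. The map's mean there, 121, stood above the 89.9 and 82.5 at the neighbouring distances, and 27.8% of its sum came from 1 pair of poorly covered bins outside the domain with 98 read pairs. Without poorly covered bins the map's mean was 83.1, and the domain's summed observed/expected value at 200 kb rose from 0.778 to 1.13. This touches 32 of the 1275 pairs.

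**Figure D1:**
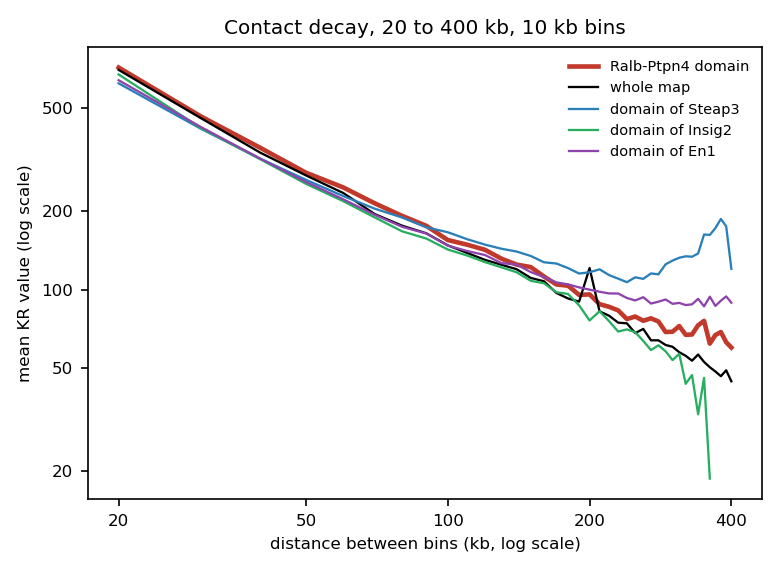
Mean KR value by distance between bins, both on log scales, for the Ralb-Ptpn4 domain, the whole map and 3 other domains of the same map, with 1 line each and no error bars. The Ralb-Ptpn4 line lies above the whole-map line except at the spike of the map at 200 kb, and the gap widens unevenly with distance. The ratio is 1.44 at 350 kb, a distance that holds the strongest enriched pair, against 1.296 at 340 kb and 1.349 at 400 kb. At 350 kb the Ralb-Ptpn4 line runs between the lines of the En1 and Insig2 domains, the latter of which ends at 360 kb.

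Pairs were then split by coding genes. A bin belonged to each gene it overlapped, and a pair was same-gene (both bins overlap 1 shared gene, 227 pairs), different-gene (both overlap genes but share none, 636), mixed (1 end in a gene, 383) or gene-free (29). The classes differ in distance, with means of 63.7 kb for same-gene, 222 kb for different-gene, 187 kb for mixed and 225 kb for gene-free pairs. Their summed observed/expected values were 1.05 (1.04 to 1.05), 1.04 (1.03 to 1.04), 1.00 (0.994 to 1.01) and 1.17 (1.15 to 1.2). Against the mean of the domain itself at each distance, they were 1.01, 0.942, 0.936 and 1.1, so the different-gene value changed side of 1 with the choice of reference. With distance alone behind the expected count, the same-gene value turned to 0.928 (0.921 to 0.935), below the different-gene value of 1.1. With the main expected count and pairs at 20 to 100 kb alone, the different-gene value was 0.957 and the same-gene value 1.04.

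The order of the classes differed between bands of distance. At 20 to 40 kb gene-free pairs were highest with 1.13, then same-gene pairs with 1.01, different-gene pairs with 0.956 and mixed pairs with 0.874. At 50 to 90 kb same-gene pairs had 1.12 (1.1 to 1.14), different-gene pairs 0.953 (0.938 to 0.970) and mixed pairs 0.923 (0.908 to 0.938). At 100 to 190 kb the values were 1.1, 1.02 and 1.07 in that order. From 200 kb up no same-gene pair remains, and different-gene pairs had 1.12 (1.11 to 1.14), mixed pairs 1.27 (1.25 to 1.29) and gene-free pairs 1.43 (1.36 to 1.5). Among all other pairs of the map, same-gene pairs were also above different-gene pairs in these bands, with 1.08 against 0.884 at 50 to 90 kb and 1.21 against 0.9 at 100 to 190 kb. From 200 kb up, the different-gene and mixed pairs of the rest of the map stood at 0.858 and 0.860, below expected, whereas those of the domain were above it. These other pairs include many that cross domain borders.

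**Figure D2:**
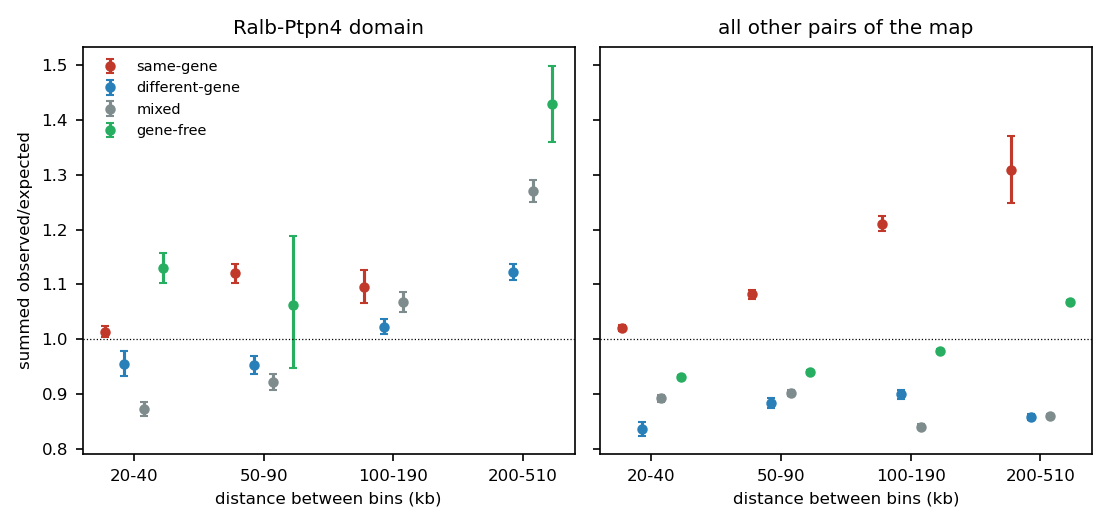
Summed observed/expected value by distance band (kb) for same-gene, different-gene, mixed and gene-free pairs, in the domain (left) and over all other pairs of the map (right); points are sums over pairs and bars exact Poisson 95% intervals (counting error only). In the domain the mixed and gene-free points reach 1.27 and 1.43 at 200 kb or more, while same-gene points stay between 1.01 and 1.12.

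The gene-free class rested on few bins. Its 10 pairs within the upper run had 1.16 (1.13 to 1.19) and all 10 were above 1, and its 18 pairs between the runs, 310 to 380 kb apart, had 1.43 (1.36 to 1.5), again all above 1. The 1 pair within the lower run had 0.770 (0.697 to 0.848). Against the domain's own mean per distance the between-run value was 1.1. All 18 between-run pairs lie within 5 bins of the strongest enriched pair, at both ends. When pairs that close to it were left out, a choice made after seeing the values, 11 gene-free pairs with 1.13 remained, and none of these was between the runs.

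Each gene had its own level of internal contact. Ptpn4, the longest at 180 kb, had an observed/expected value of 1.15 (1.13 to 1.16) over 153 same-gene pairs, which ran from 0.640 to 1.90. Epb4.1l5 had 1.07 (1.05 to 1.08) over 45 pairs from 0.809 to 1.60. Gm101 had 0.835 (0.820 to 0.850) over 28 pairs, none above 1.05. Ralb had 1 pair inside the domain, at 1.23, but 0.959 (0.932 to 0.987) over all 6 of its pairs, most of which reach below the domain. Among the 12 genes of the map with at least 3 same-gene pairs, Gli2 was highest with 1.22, Ptpn4 had rank 2, Epb4.1l5 rank 4, Ralb rank 7 and Gm101 rank 11. The intervals of Ptpn4, Epb4.1l5 and Gm101 do not overlap. Clasp1, another long gene, had 0.959 over 231 pairs.

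Contacts between genes depended on which genes and how far apart. Epb4.1l5 with Ptpn4, its neighbour, had 1.09 (1.08 to 1.1) over 208 pairs. Ralb with Epb4.1l5 had 0.832 (0.813 to 0.851) over 33 pairs, although these lie only 40 to 160 kb apart. Ralb with the farther Ptpn4 had 0.975 (0.947 to 1.00). The single bin of Tmem177 had 1.74 (1.57 to 1.92) with Ralb, 1.63 (1.54 to 1.71) with Epb4.1l5 and 1.25 (1.2 to 1.3) with Ptpn4. With Gm101, its nearest gene, it had 0.801 (0.771 to 0.831). The 10 kb bin of Tmem177 was thus above expected with the 3 genes below it and below expected with the gene above it. The bin is wider than the gene, whose start lies in its upper part. Against the domain's own mean per distance the values were 1.23, 1.34, 1.17 and 0.769, on the same sides of 1.

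Among pairs between the bins that hold the gene starts, those with Tmem177 were on the same sides of 1. The start bins of Ralb and Tmem177, 400 kb apart, held 151 read pairs and reached 2.07 (1.76 to 2.43). Those of Epb4.1l5 and Tmem177, 260 kb apart, had 154 read pairs and 1.77 (1.5 to 2.07). Those of Ptpn4 and Tmem177, 70 kb apart, had 250 read pairs and 1.44 (1.27 to 1.63). The starts of Ralb and Epb4.1l5 had 1.36 (1.19 to 1.55) although the bodies of these genes were below expected. The start of Gm101 had 0.897 (0.772 to 1.04) with that of Tmem177 and 0.826 (0.639 to 1.05) with that of Ptpn4, and both intervals include 1. With the starts farther away it was above 1, at 1.39 (1.08 to 1.77) with Ralb and 1.25 (0.973 to 1.59) with Epb4.1l5. Of the 10 pairs of starts, 8 were above 1, beside 63.45% of all pairs of the domain.

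The insulation score, the log2 mean KR value between the 50 kb on each side of a bin relative to the map's median, had 2 minima of a prominence of at least 0.2 inside the domain. That is 4% of the 50 inner bins, and the same rule called 6.68% of the bins of the map. The deeper one lay in the bin 121810001 to 121820000, which lies between Tmem177 and Gm101 apart from its last bases, the end of Gm101. Its score was −0.49 and its prominence 0.73. The score of the domain's own borders was −0.45 in the bin 121360001 in Ralb and −0.44 in the bin 121900001 in Sctr, so with this window the inner minimum was the lowest of the 3. The shallower minimum lay in the bin 121730001 to 121740000, which holds the start of Ptpn4, with a score of −0.02 and a prominence of 0.25. Just under the limit were the bin 121430001 with a prominence of 0.17, which ends below Epb4.1l5, and the bin 121550001 with 0.16, which holds the end of Ptpn4 next to the start of Epb4.1l5. With windows of 100 and 150 kb no minimum inside the domain reached this prominence, although the scores in the bin 121810001 were still −0.39 and −0.36.

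**Figure D3:**
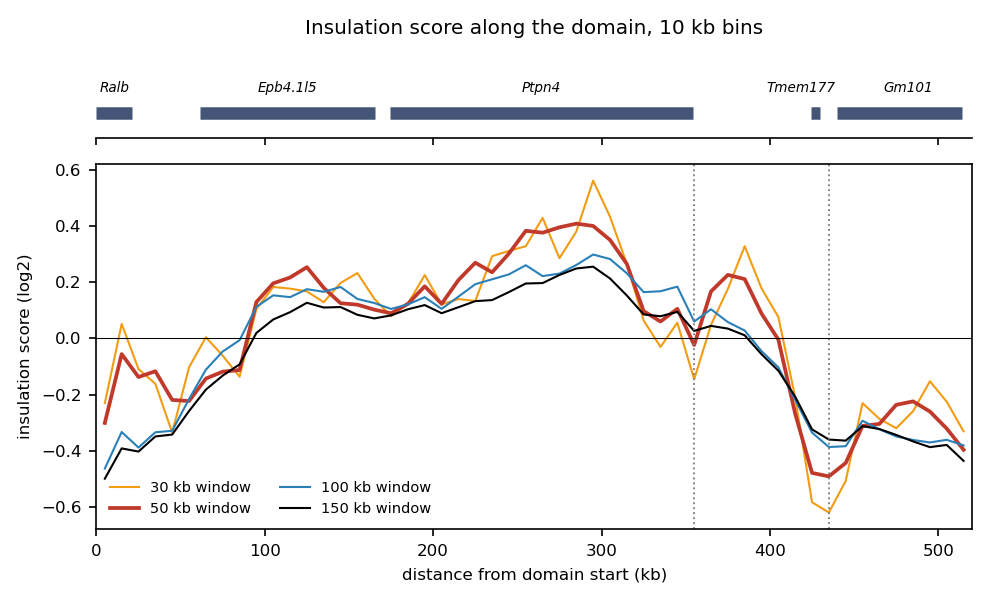
Insulation score (log2, relative to the map's median) along the domain for windows of 30, 50, 100 and 150 kb, plotted against distance from the domain start in kb, with coding genes on top and the 2 called minima of the 50 kb window as dotted lines. The 50 kb curve is highest over the middle of Ptpn4 and falls to −0.49 between Tmem177 and Gm101.

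The minima divide the domain into a lower stretch of 350 kb with Ralb, Epb4.1l5 and Ptpn4, a middle stretch of 70 kb from 121740001 to 121810000 that ends with Tmem177, and an upper stretch of 80 kb filled by Gm101. Summed observed/expected values inside were 1.05 (1.04 to 1.05), 1.1 (1.07 to 1.12) and 0.836 (0.820 to 0.852). Between the lower and the middle stretch the value was 1.2 (1.19 to 1.22), higher than inside either. Between the middle and the upper stretch it was 0.762 (0.748 to 0.777), and between the lower and the upper stretch 1.07 (1.05 to 1.08). The upper stretch was thus below expected inside itself and with its direct neighbour. Its summed value with the lower stretch was above expected. By gene, values were taken for Gm101, whose bins also include the border bin 121810001 outside the upper stretch. The highest pair of Ralb with Gm101, 2.02, lay in that border bin. Gm101 had 1.31 (1.25 to 1.36) with Ralb and 1.24 (1.21 to 1.27) with Epb4.1l5, and 0.944 (0.927 to 0.960) with Ptpn4. Against the domain's own mean per distance, Gm101 had 0.94 with Epb4.1l5, 0.959 with Ralb and 0.873 with Ptpn4, all below 1.

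The 50 kb window uses no pair over 100 kb, so those pairs give counts that the calls did not use. Pairs over 100 kb that crossed 1 or both minima had 1.16 (1.15 to 1.17) over 497 pairs, and pairs inside the lower stretch had 1.06 (1.05 to 1.07) over 300. The ratio was 1.09 (1.08 to 1.11), so the pairs that crossed were the higher ones. With the border between Tmem177 and Gm101 alone, which passes a prominence of 0.4, the ratio was 0.906 (0.892 to 0.921), on the other side of 1. Against the domain's own mean per distance it was 1.00 with both minima.

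Single enriched pairs were few. Pairs from 50 kb up with 10 or more read pairs were tested, and a pair was called with a lower 95% bound of observed/expected above 1.5 and a value above 1.5 times that of the ring of pairs 2 to 5 bins away. The rule called 2.56% of the pairs tested over the map and 1.68% of those up to 510 kb. In the domain it called 12 of 1122 pairs, 1.07%, a smaller share than over the map. With 5 kb bins 57 of 3690 pairs were called, 1.54%, against 3.90% over the map and 1.92% up to 510 kb. The 12 pairs fell into 4 groups, and 11 of them had 1 end between 121780001 and 121830000, around Tmem177. The share of all tested pairs with an end there was not computed, so this count is a description only. These 11 pairs lie 250 to 410 kb apart, and all pairs of the domain from 200 kb up summed to 1.18.

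The strongest joined the bin 121440001 to 121450000, which holds the downstream end of Epb4.1l5 at 121441610, to the gene-free bin 121790001 to 121800000, 350 kb away and 4.47 kb below Tmem177. It held 208 read pairs against 65.5 expected, an observed/expected value of 3.18 (2.76 to 3.64), while the ring around it stood at 1.34. Its KR value of 167.5 was the highest of the 17 pairs at that distance in the domain, and its observed/expected value had rank 6 of 438 over the map. The upper bin is the one with 3 CTCF core matches, all on the minus strand. At 5 kb all 4 pairs inside it were above expected, from 2.06 (1.37 to 2.97) to 3.61 (2.80 to 4.60), with 66 read pairs in the highest, 121440001 to 121445000 with 121790001 to 121795000. The matches shown from 121791766 and from 121790999 both lie in that 5 kb bin. Its group held 7 pairs, from 2.11 to 3.18. Others of it joined the bin 121440001 to 121820001, with 192 read pairs and 2.39 (2.06 to 2.75), and to 121810001, with 141 read pairs and 2.37 (1.99 to 2.79), so the enrichment reached past the border between Tmem177 and Gm101. The strongest pair was called under all 9 alternative settings. Several of these could not have lost it: a threshold of 1.2 and no ring only loosen the rule. It also met the minima of 20 read pairs and 100 kb already.

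The second group of 3 pairs joined the Tmem177 bin, 121800001 to 121810000, to the region where Epb4.1l5 starts and Ptpn4 ends. Its highest pair was with the bin 121550001 to 121560000, 250 kb away, with 242 read pairs against 119 expected, which gives 2.04 (1.79 to 2.31). The other 2 pairs, with the bins 121520001 and 121530001 in Epb4.1l5, held 83 and 152 read pairs and reached 2.03 (1.62 to 2.52) and 1.86 (1.58 to 2.19). At 5 kb the first pair was highest where its end was the lower part of the Tmem177 bin, with 2.97 (2.07 to 4.14) on 35 read pairs; the 2 pairs with the upper part had 1.75 and 1.56.

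The remaining groups held 1 pair each. The bins 121380001 in Ralb and 121790001, 410 kb apart, held 93 read pairs, which gives 2.09 (1.69 to 2.57), and this call was lost under 4 of 9 alternatives. Of the alternatives that could have lost it, only 5 kb bins kept it. The bins 121440001 in Epb4.1l5 and 121570001 in Ptpn4, 130 kb apart, held 236 read pairs, which gives 1.77 (1.55 to 2.01), and this call was lost at a threshold of 2 and against the domain's own mean per distance. Another 19 pairs passed the lower bound but not the ring, the closest being 121450001 with 121760001, at 1.95 and 1.49 times its ring. The 9 pairs between the first 3 and the last 3 bins of the domain summed to 1.35 (1.25 to 1.46), with 7 of 9 above 1. The highest of them was 1.99.

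The profiles of 3 of the bins in these pairs were one-sided. They are read beside the 63.45% of all pairs of the domain above 1, and beside the summed value of 1.18 for all its pairs from 200 kb up. Of the 40 partners of the bin 121790001 at lower coordinates, 38 were above 1, with a median of 1.25, and of the 9 at higher coordinates none was, with values from 0.466 to 0.788. The Tmem177 bin had 37 of 41 lower partners above 1, with a median of 1.37, and 0 of 8 higher partners, with values from 0.547 to 0.983. At 200 kb or more below it, 22 of 23 partners were above 1 and the median was 1.58. Over all pairs of the domain from 200 kb up the median was 1.135, and their share above 1 was not computed. The bin 121440001 showed the opposite side: 36 of 44 higher partners were above 1 and 0 of 5 lower ones, which lie in Ralb and the gene-free run and had 0.604 to 0.922. In sum, each bin of the strongest pair was thus above expected on the side that faces the other and below it on the far side. The bins next to them had the same sides, so this was not particular to the pair. The bin 121780001 had 1.2 with lower and 0.694 with higher partners. The bins 121430001 and 121450001 had 0.847 and 0.935 with lower partners and 1.128 and 1.175 with higher ones. The bins of the strongest pair were also chosen by that pair, which lies on the facing side. The bin 121550001 was not one-sided, with 14 of 16 lower and 28 of 33 higher partners above 1, and the bin 121570001 was near expected on both sides, at 1.01 and 0.954.

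**Figure D4:**
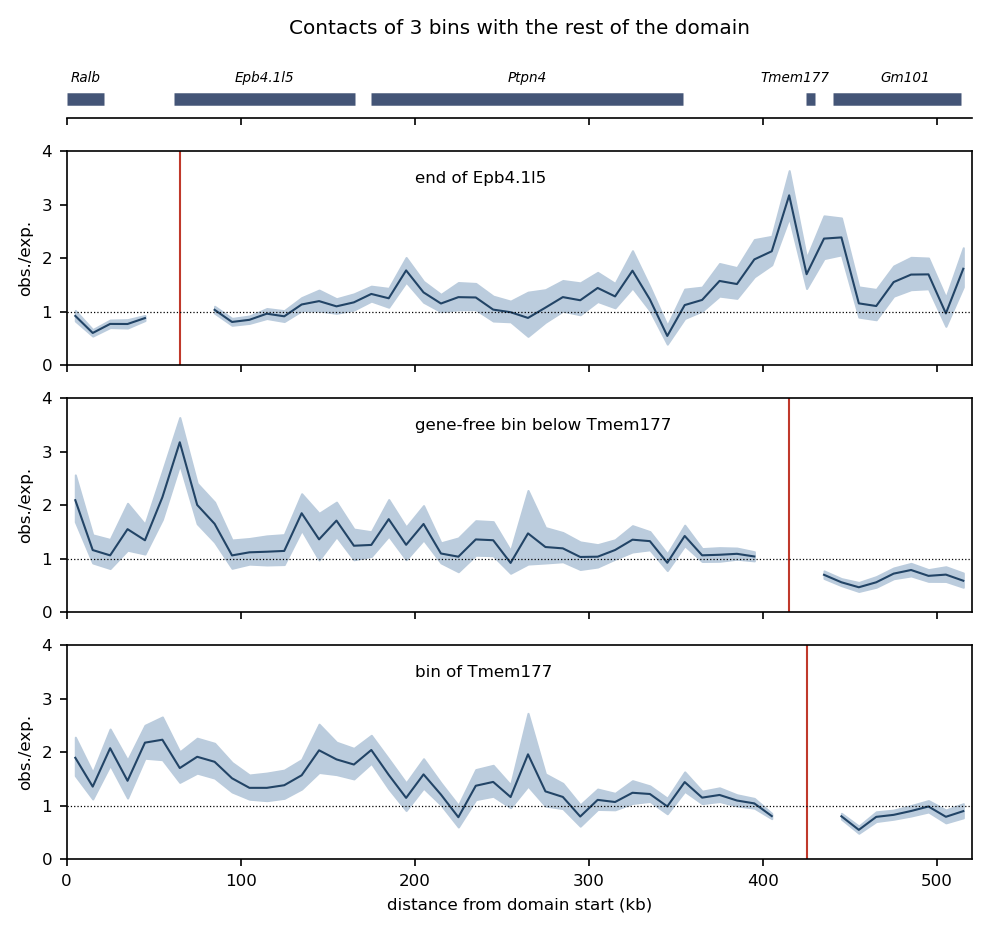
Observed/expected value of 3 bins (red lines) with every other bin of the domain at 20 kb or more, against distance from the domain start in kb; lines are values per pair and shaded bands exact Poisson 95% intervals. The top profile peaks at 3.18 in the gene-free bin below Tmem177, and the middle and lower profiles lie below 1 at every bin above Tmem177.

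Summed over all partners, bins ranged from 0.691 to 1.29. The highest were 121640001 in Ptpn4 with 1.29 (1.22 to 1.36), the poorly covered bin with only 1332 read pairs to the rest, 121700001 in Ptpn4 with 1.25 (1.21 to 1.28) and 121460001 in Epb4.1l5 with 1.23 (1.21 to 1.26). The lowest were 121830001 in Gm101 with 0.691 (0.672 to 0.712), 121720001 in Ptpn4 with 0.758 (0.737 to 0.779) and 121390001 in Ralb with 0.798 (0.780 to 0.816). The bin 121720001 lies directly below the start bin of Ptpn4. Its neighbours on either side had 1.06 and 1.09, so the low value was limited to 10 kb. The bin 121390001 had the highest total of the domain, 49237 read pairs, of which 21476 were within the bin. At 100 kb or more, ranked after the values were seen, the Tmem177 bin was highest with 1.47, followed by 3 bins in the lower part of Epb4.1l5 with 1.46, 1.44 and 1.38 and the bin 121790001 with 1.33.

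The bases upstream of the starts of Ptpn4 and Tmem177 are given because these starts lie in the shallower border bin and in the bin with the highest observed/expected value at 100 kb or more; a 10 kb bin is much wider than a promoter, and the contacts cannot be placed on these bases. Each is the 200 bases before the start on the gene's minus strand, 5′ to 3′, with CG dinucleotides in capitals.
Ptpn4, chr1:121734191-121734390: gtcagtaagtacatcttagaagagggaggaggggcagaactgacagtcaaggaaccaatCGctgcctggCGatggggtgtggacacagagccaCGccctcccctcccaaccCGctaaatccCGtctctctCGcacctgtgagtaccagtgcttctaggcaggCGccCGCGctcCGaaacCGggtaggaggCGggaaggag
Tmem177, chr1:121809786-121809985: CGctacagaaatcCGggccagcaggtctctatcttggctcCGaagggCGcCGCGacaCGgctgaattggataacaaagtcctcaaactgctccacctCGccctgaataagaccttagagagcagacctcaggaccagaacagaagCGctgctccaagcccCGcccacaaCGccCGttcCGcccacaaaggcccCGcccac
They hold 12 and 14 CG dinucleotides, where the median over the 25 coding starts of the map was 11.0, and neither holds the CTCF core letters.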

How the data were processed

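The authors deposited, at each bin size, raw counts of read pairs per bin pair without normalization, and the same map as a balanced signal. The deposited file names call it KR, taken here to mean Knight-Ruiz balancing. Per the deposited file names, reads passed HiCUP and a mapping quality minimum of 30. The submitters' processing notes name Bowtie2 2.3.4.1, Juicer 1.7.6, SAMtools and mm9. Versions of other tools, the probes and the region limits were not given in the sources used here. The 5 and 10 kb tables were used. Balancing factors were solved from the raw/KR ratios. Missing pairs counted as 0. The map held a median of 22376 read pairs per 10 kb bin.

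Slopes were least-squares fits on log10 scales from 20 to 400 kb, with counting errors carried through and balancing factors taken as fixed. Enriched pairs were grouped where they lay at most 2 bins apart. Genes came from GENCODE M1 on NCBIM37, the same assembly as mm9. The insulation and enrichment steps were tested on counts simulated from the map's expected values. A slope fit to simulated means per distance was tested over the whole map only. The fit inside the domain and its counting error were not tested. Python 3.11.15, numpy 2.4.6, scipy 1.17.1 and matplotlib 3.10.9 were used. No molecular identifiers are named in the sources used here, so intervals cover counting error only, and no p-values were computed. Named items were all coding genes of the domain, pairs of gene starts, up to 6 minima, the pair with the highest lower bound in up to 8 groups, the 3 highest and 3 lowest bins, and the corner pairs. The members, lists and rules were chosen with earlier results of these data known. The upstream bases, the match in the bin above the domain and other pairs given with values were chosen after values were seen.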

Additional observations from a re-analysis of the deposited data

How the results depend on the processing

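No paired analysis was possible because 1 merged map was given without values per library, which also kept either library from being left out. Changes are judged against counting error, which is small, so modest changes exceed it. The cause was not tested unless one is named. Depth limits the 5 kb pairs most.

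The slope of −0.779 stayed negative: −0.771 with 5 kb KR values, −0.654 and −0.640 on raw counts of 10 and 5 kb bins, −0.849 over 20 to 200 kb, −0.676 over 100 to 400 kb, −0.771 over all distances, −0.803 from medians, −0.763 without the outermost bins and −0.771 without the stretch above the upper border. The value of all pairs, 1.03, was 1.06 with distance alone behind the expected count, 1.01 with 5 kb bins, 1.07 with an expected value without low bins, 1.07 at 50 kb or more, 1.05 without the outermost bins and 1.08 without the upper stretch.

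For same-gene, different-gene, mixed and gene-free pairs, the domain's own means gave 1.01, 0.942, 0.936 and 1.1, and distance alone gave 0.928, 1.1, 1.15 and 1.32, which turned the same-gene value below 1. That alternative ignores the low totals of the Ptpn4 bins by construction. An expected value without low bins gave 1.09, 1.08, 1.04 and 1.21. At 50 kb or more they were 1.11, 1.04, 1.07 and 1.35, and at 20 to 100 kb the latter 3 were 0.957, 0.8995 and 1.13. With 5 kb bins the latter 3 were 1.01, 0.972 and 1.08. Genes at bin midpoints gave 1.06 for same-gene and 1.08 for gene-free pairs. Without the outermost bins the first 3 were 1.06, 1.07 and 1.01, and without the upper stretch 1.11, 1.04 and 1.06. Without pairs near the strongest one the latter 3 were 1.02, 0.969 and 1.13. Leaving out the upper stretch or the pairs near the strongest one was chosen after seeing the data.

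The 2 minima became 0 with 100 kb and 0 with 150 kb windows, 4 at prominence 0.1, 1 at 0.4 and 4 on raw counts. Within 10 kb, the one between Tmem177 and Gm101 was found under 5 of 7 settings, in 2 of them at Tmem177 itself, and the one at Ptpn4 under 3. The ratio across them, 1.09, was 1.01 with the 30 kb window, 1.05 at prominence 0.1, 1.07 with 5 kb bins and 1.00 with the domain's own means, and reversed to 0.906 at prominence 0.4; with the 100 kb window there was no minimum and no value. The 12 enriched pairs became 114 and 1 at thresholds of 1.2 and 2, 31 without the ring, 2 with the domain's own means, 72 with distance alone and 57 with 5 kb bins. With an expected value without low bins 16 were called, 11 of them among the 12. Of 16 values of the 4 named pairs under alternatives, 8 left their intervals and all stayed at 1.43 or more. For 5 kb bins the value taken was the highest of the 5 kb pairs inside each named pair. Other 5 kb pairs were lower, down to 1.395 (0.696 to 2.496) inside the pair of 121380001 with 121790001. Inside the pair of 121440001 with 121570001 they fell to 1.33 (1.01 to 1.72).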

Other observations

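Many of the CTCF core matches in the domain share 1 word. Of 45 matches, 30 read CCAGAAGAGGGC, a stretch that also occurs in the mouse B2 family of short interspersed repeats. The 45 matches lay in introns in 33 cases and between genes in 12, and none overlapped an exon, with 20 on the plus and 25 on the minus strand. Of the 3 matches in the upper bin of the strongest enriched pair, 1 was of this word, as was the match in the border bin at the start of Ptpn4, and the match in the border bin between Tmem177 and Gm101 was not. Repeat annotation was not used here.

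Of the 561554 read pairs at 20 kb or more with an end in the domain, 35.8% (Wilson 95% interval 35.7 to 35.95%) had the other end inside it as well, where 32.2% were expected from distance and balancing factors. The domain limits were chosen by the insulation score of this same map, so a higher inside share is part of the choice and is a description only. The interval covers counting error only.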
